A study of Mus musculus with 9 samples.

Results

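Vesicle traffic through the Golgi apparatus was followed in 52 genes, chosen by name as the rows of the deposited expression table whose Ensembl identifier carries the symbol of a COPI or COPII coat subunit, an ARF GTPase, an ER-Golgi SNARE, a cargo receptor, a golgin or GRASP protein, or a subunit of the COG or GARP tether in GENCODE M21. All 52 were found among the 28137 identifiers of the table. The table holds RNA-seq values from 9 libraries of the mouse macrophage line RAW264.7. Of these, 3 are labelled NC (control siRNA), 3 SFRP2 siRNA and 3 RAB6A siRNA. Per the labels, all groups received 60 nM siRNA for 6 h, were then kept for 12 h in complete medium, and were polarised with LPS (lipopolysaccharide, 100 ng/ml) for 24 h, so that no group is free of siRNA or of LPS. The study's methods give another dose, recovery time and medium and add IFN-γ, and they do not describe the RAB6A group. It is not stated whether the 3 libraries of a group come from separate cultures, or whether a group received 1 siRNA or several. The p-values below therefore set differences against the spread between these libraries, which may be technical.

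Proteins leave the endoplasmic reticulum in COPII-coated vesicles and reach the Golgi, while COPI-coated vesicles carry escaped ER residents and Golgi enzymes back. Golgins and multi-subunit tethers such as COG and GARP catch incoming vesicles, and SNARE proteins then fuse the membranes. RAB6A is a small GTPase of the Golgi that acts in retrograde transport within the Golgi and towards the ER, and activated macrophages send cytokines out through the same route.

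The letters of the promoters are shown first, because a short motif was shared by many of these genes. The motif ACGTGGC is the core of the Golgi stress response element, to which the transcription factor TFE3 is known to bind, TGACGTGG contains a core bound by factors of the CREB3 and unfolded protein response families, and CACGTG is the E-box read by many basic helix-loop-helix factors. Promoter windows of 250 bases before to 50 bases after the annotated start were taken from RefSeq (GRCm38.p6), where 46 of the 52 genes had an entry. Searched on both strands, ACGTGGC was present in 14 of these 46 genes (30.4%), against 2.95% of the 27025 genes with a window. These 27025 genes were not matched to the 46 in expression or in GC content. TGACGTGG was present in 6 (13.0%, against 0.714% of all genes), and 4 genes held both of these motifs, whose letters overlap. CACGTG was present in 4 genes (8.7%), against 8.09% of all genes, and 28 of the 46 held none of the 3 motifs. Arcn1, Kdelr2, Tmed2, Golga4, Golgb1 and Vps51 had no entry. The motif ACGTGGC began between 158 bases before and 39 bases after the start. The 14 windows of 30 bases around it are printed 5′ to 3′ on the strand of the gene, with the motif or its reverse complement in capitals, and they give the letters only, not a measured binding site. Stx5a and Uso1 held the motif at 2 places each, of which 1 is marked.
Copg1: gtgctcagggcgACGTGGCgggcgggagta
Copz2: tgcagcggccggaggcctgGCCACGTccgc
Arf1: cggcaggcgctgACGTGGCtgccgtcagcg
Sec13: gcgttttgagctGCCACGTccgaggccgtg
Sec23a: tcctcccctttgACGTGGCagaggcggcac
Sec24c: tgcctaaggccgACGTGGCagaaggagtgg
Sec24d: cccgggcgcctgACGTGGCactagcaaccc
Sec31a: ggggctgcggctGCCACGTtggagcggagc
Sar1a: ctgacagacgctGCCACGTcttaccccgct
Stx5a: cgtggcgcagcaGCCACGTcaccgagttag
Tmed9: ctccgctgggctACGTGGCtcggcagtctg
Golga3: gccccttgcacaGCCACGTcctaccggagc
Uso1: gcccttcgagccGCCACGTaacgccacgtc
Cog3: cctccgtcgaaaGCCACGTctgttttggcc

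The windows printed above lie at the following places on GRCm38.p6. With the strand in parentheses, those of COPI, ARF and COPII genes are Copg1 at chr6:87887931-87887960 (+), Copz2 at chr11:96849896-96849925 (+), Arf1 at chr11:59228227-59228256 (-), Sec13 at chr6:113740667-113740696 (-), Sec23a at chr12:59011992-59012021 (-), Sec24c at chr14:20674234-20674263 (+), Sec24d at chr3:123267460-123267489 (+), Sec31a at chr5:100416205-100416234 (-) and Sar1a at chr10:61680115-61680144 (+). Those of the other genes are Stx5a at chr19:8741420-8741449 (+), Tmed9 at chr13:55593119-55593148 (+), Golga3 at chr5:110176872-110176901 (+), Uso1 at chr5:92137869-92137898 (+) and Cog3 at chr14:75754598-75754627 (-). Of the 14 genes, 4 were higher in the RAB6A siRNA libraries than in NC by the test described below (37.6% of all genes were), 5 were lower (36.5% of all genes), 4 did not pass it and Copz2 was below the filter. The 4 higher genes, Sec23a, Stx5a, Tmed9 and Golga3, kept their calls in every alternative processing, whereas of the 5 lower genes Uso1 did so and Copg1, Arf1, Sec31a and Sar1a did not. The same held with or without the motif: of all 37 trafficking genes called, 26 kept their calls and 11 did not. Among those 11, only Sar1b and Cog2 were higher, and the others were lower.

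RNA of the trafficking genes was abundant in these cells. FPKM, the unit deposited by the authors, scales the fragments of a gene to its length and to the size of the library, so that levels can be set side by side between genes. The median FPKM of the 52 genes was 15.6 in NC, 14.1 in SFRP2 siRNA and 13.0 in RAB6A siRNA, and that of all genes with a mean of at least 0.5 was 5.62, 5.52 and 4.96. The highest level was that of Arf1, the GTPase that recruits the COPI coat, with 126, 124 and 118 FPKM in the 3 NC libraries. Tmed2, Arf4 and Gorasp2 followed with NC means of 58.0, 55.0 and 54.9 FPKM, and their libraries overlapped. The lowest level was that of Copz2, a second zeta subunit of COPI, with 0.0544, 0.134 and 0.149 FPKM in NC, from 5 to 14 reads. Within the COPI coat the NC means ran from 7.06 FPKM for Copg2 to 42.1 for Copa, leaving out Copz2. The spread between the libraries of a group was small, with a median coefficient of variation over the 52 genes of 4.14% in NC, 5.24% in SFRP2 siRNA and 7.06% in RAB6A siRNA.

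Depth ranged from 32758729 to 47149258 reads per library, with all 3 RAB6A siRNA libraries below all 3 NC libraries. Sfrp2 itself was near the limit of detection, with 2 reads in each NC library and 2 to 4 reads in each of the others, so that its silencing was not detectable at this depth. Rab6a fell from 25.7 ± 1.48 FPKM (SD, n = 3) in NC to 20.7 ± 0.445 in the RAB6A siRNA libraries (log2 fold change -0.31, SE 0.06, limma adjusted p = 0.0024), and was 27.0 ± 1.45 in the SFRP2 siRNA libraries. In RAB6A siRNA against NC, the median absolute log2 fold change of all genes was 0.63, and 36.5% of all genes were called lower. Of 8 macrophage markers all were detected, and their summed FPKM was 2960 to 3260 in NC, 2610 to 2870 in SFRP2 siRNA and 2040 to 2180 in RAB6A siRNA, so that both targeted groups lay below NC. The markers did not move together in RAB6A siRNA, where Lyz2 (log2 fold change -2.03), Csf1r (-1.44), Spi1 (-1.05) and Fcgr1 (-0.75) fell, Ptprc rose (0.17, limma adjusted p = 0.028), and Cd68 (-0.14), Itgam (0.09) and Adgre1 (0.00) did not pass the test. Marker lists of fibroblasts, epithelium, endothelium, T cells, B cells and neutrophils each summed to at most 2.9 FPKM in any library, with Cd3g listed at 0 in all NC libraries. The highest of these sums was that of the fibroblast list, at 1.13 to 2.1 FPKM in NC and 1.73 to 2.9 in RAB6A siRNA. Col1a2 (1.17), Dcn (0.81) and Pecam1 (0.69) were called higher and S100a8 (-2.24) lower in RAB6A siRNA. From the same fibroblast and endothelial lists, Col1a1 (-0.08) did not pass the test, and Pdgfra, Cdh5 and Kdr were below the filter. Cdh5 went down, with 0.372, 0.353 and 0.414 FPKM in NC and 0.072, 0.189 and 0.196 in RAB6A siRNA. The part of these markers in the results below was not tested. In bulk RNA, fewer cells of a kind and less RNA per cell cannot be told apart.

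Most trafficking genes changed in the RAB6A siRNA libraries, by small amounts and in both directions. A linear model (limma) on log2(FPKM + 0.1) was fitted to all 12712 genes whose FPKM averaged 0.5 or more across these 6 libraries, with Benjamini-Hochberg adjustment over all of them, and 51 of the 52 genes passed this filter. At an adjusted p under 0.05, 37 of 51 were called (72.5%), against 74.1% of all genes. Of these, 16 were higher (37.6% of all genes were) and 21 were lower (36.5% of all genes). Once GC content and length were corrected for, 35 of the 51 were called, 20 higher and 15 lower, and 9324 of all 12535 genes were called. Shares of all genes by direction were not computed with this correction, here or below. Whether the shift towards higher calls is particular to these genes therefore cannot be told. Of the 37 calls, 26 held in every alternative processing and 11 did not, and 7 of the 14 genes without a call gained one in at least 1. The median log2 fold change was -0.03 over the 51 genes and 0.03 over all genes, and the median of its absolute value was 0.31 against 0.63. An absolute log2 fold change over 1 together with an adjusted p under 0.05, the limit used for differentially expressed genes (DEGs), was met by 3 of the 51 (5.88%), against 30.1% of all genes. All 3 were higher (17.3% of all genes). The libraries of the groups did not overlap for 39 of the 51 genes, 17 above and 22 below NC, which is 76.5% against 77.4% of all genes (39.2% above and 38.2% below). The share of trafficking genes called was therefore near that of the background. The heat map of the 52 genes by library shows the pattern.

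**Figure D1:**
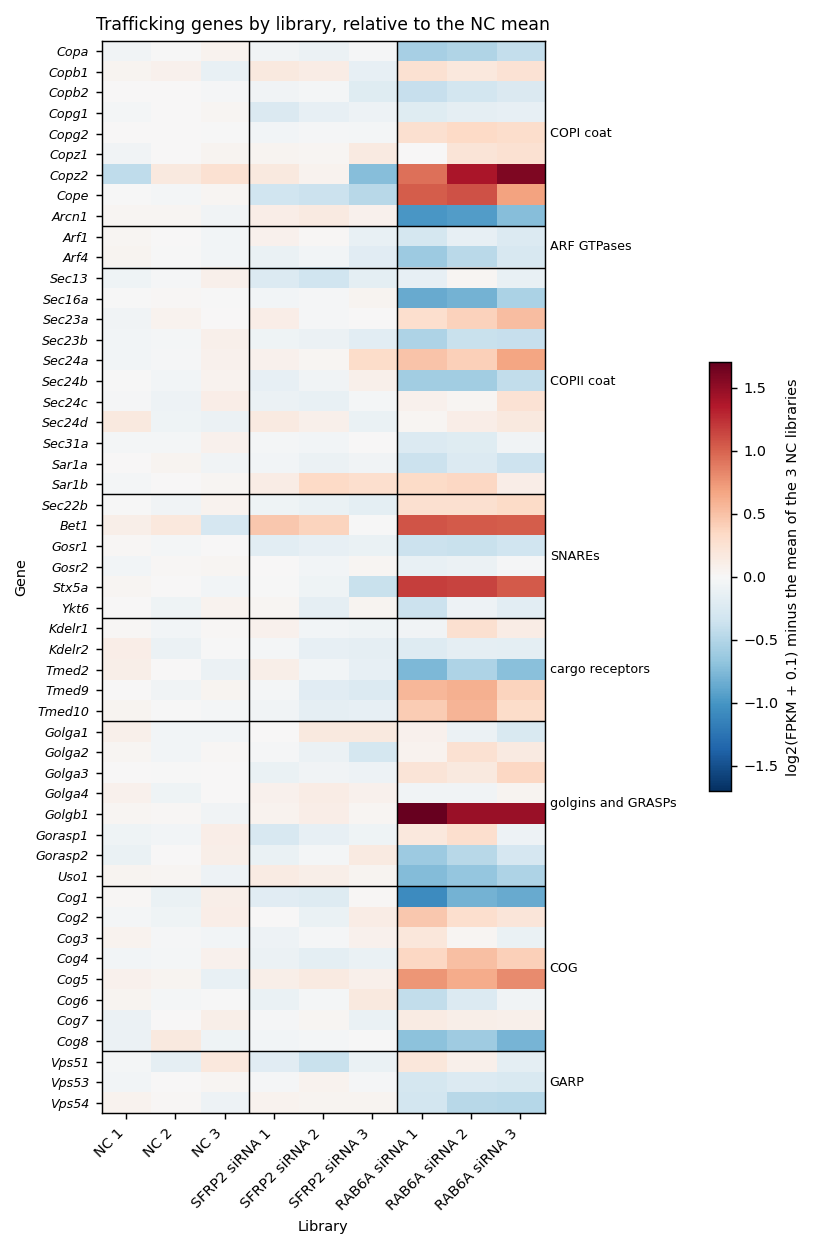
Level of each of the 52 trafficking genes (rows, by role) in each of the 9 libraries (columns), as log2(FPKM + 0.1) minus the mean of the 3 NC libraries, in red where higher and in blue where lower. The NC and SFRP2 siRNA columns are mostly pale, with Copz2, Cope and Bet1 among the exceptions, while the RAB6A siRNA columns hold both colours in most roles, with Golgb1 the darkest red among the genes that passed the filter and Cog1 the darkest blue.

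The golgins and GRASP proteins, the matrix that tethers vesicles and holds the cisternae together, contained the gene with the highest fold change. Golgb1 (giantin, a long coiled-coil tether of COPI vesicles, chr16:36875140-36933085 on GRCm38) had 10.9, 10.8 and 10.2 FPKM in the NC libraries, 11.2, 11.5 and 10.9 in SFRP2 siRNA and 34.9, 29.7 and 29.6 in RAB6A siRNA. Every RAB6A siRNA library was above every other library, and the difference from NC was large against the spread (log2 fold change 1.54, SE 0.079, limma adjusted p = 3.4e-06). Reads of Golgb1 can be divided with another annotated transcript, Gm49599, which lies on the same strand, begins at the same base, ends at 36880234 and shares 4.21% of the exon bases of Golgb1. Gm49599 itself had 1.18, 1.27 and 1.06 FPKM in NC, 1.64, 1.60 and 1.78 in SFRP2 siRNA and 19.4, 16.0 and 19.6 in RAB6A siRNA. Its log2 fold change against NC was 3.86 (SE 0.1, limma adjusted p = 6.8e-07), over the first 5095 bases of the locus. The other end of this group was Uso1, a tether that links COPII and COPI vesicles to the cis-Golgi, which had 20.3, 20.1 and 18.5 FPKM in NC and 11.7, 12.4 and 13.6 in RAB6A siRNA (log2 fold change -0.64, SE 0.074, limma adjusted p = 0.00014). Gorasp2, a stacking protein, fell as well (-0.46, adjusted p = 0.0032) and Golga3 rose (0.25, adjusted p = 0.011). Gorasp2 shares 5.55% of its exon bases with Tlk1 on the opposite strand, which fell too (log2 fold change -1.0, limma adjusted p = 1.6e-05). Golga1, Golga2, Golga4 and Gorasp1 did not pass the test, with log2 fold changes from -0.10 to 0.16. Golga2 was called at 0.20 with the GC and length correction. Of 8 genes in the group, 2 rose, 2 fell and 4 did not pass the test, where 74.1% of all genes were called.

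The SNAREs gave the other 2 DEGs, which is 2 of 6 genes (33.3%, against 30.1% of all genes). Of the 6, 5 were called (83.3%, against 74.1% of all genes). Stx5a, the syntaxin at the centre of the ER-Golgi and intra-Golgi SNARE complexes, had 4.72, 4.66 and 4.48 FPKM in NC, 4.61, 4.40 and 3.51 in SFRP2 siRNA and 10.6, 10.4 and 9.64 in RAB6A siRNA. Its RAB6A siRNA libraries lay above the other 6 without overlap (log2 fold change 1.13, SE 0.065, limma adjusted p = 5.5e-06). Bet1, its partner in the fusion of vesicles with the cis-Golgi, had 2.31, 2.46 and 1.75 FPKM in NC, 2.99, 2.83 and 2.14 in SFRP2 siRNA and 4.62, 4.53 and 4.52 in RAB6A siRNA (log2 fold change 1.05, SE 0.13, limma adjusted p = 0.00018). The SFRP2 siRNA and NC values of Bet1 overlapped, and the RAB6A siRNA values stood above both. Without NC library 3, in which Bet1 was lowest, the log2 fold change of Bet1 was 0.91 and under the DEG limit. Sec22b, the R-SNARE of ER-Golgi transport, also rose (0.29, adjusted p = 0.0022). Gosr1, an intra-Golgi SNARE, fell (log2 fold change -0.36, SE 0.05, limma adjusted p = 0.00036), as did the R-SNARE Ykt6 (-0.21, adjusted p = 0.049, and -0.11 without a call after the GC and length correction), while Gosr2 had a log2 fold change of -0.08 and did not pass the test.

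In the COPI coat, 7 of the 8 subunits tested were called (87.5%, against 74.1% of all genes), 3 higher (37.6% of all genes) and 4 lower (36.5%). With the GC and length correction the split was 4 higher and 2 lower. Cope, the epsilon subunit, had 14.5, 14.3 and 14.9 FPKM in NC, 11.5, 11.2 and 10.5 in SFRP2 siRNA and 30.0, 31.0 and 23.6 in RAB6A siRNA. It was highest in the RAB6A siRNA libraries and lowest in the SFRP2 siRNA libraries, with no overlap between any of the 3 groups. Against NC its log2 fold change in RAB6A siRNA was 0.94 (SE 0.1, limma adjusted p = 0.00012), and 1.06 without RAB6A siRNA library 3. Arcn1, the delta subunit, went the other way, with 19.5, 19.6 and 18.4 FPKM in NC, 20.8, 21.2 and 20.2 in SFRP2 siRNA and 9.62, 9.88 and 11.5 in RAB6A siRNA (log2 fold change -0.89, SE 0.08, limma adjusted p = 4.0e-05). The RAB6A siRNA libraries of Arcn1 lay below all others. Both proteins are parts of the same heptamer, and the ratio of Cope to Arcn1 within a library, chosen after the values were seen and given without a test, was 0.743, 0.730 and 0.810 in NC, 0.555, 0.529 and 0.518 in SFRP2 siRNA, and 3.12, 3.13 and 2.05 in RAB6A siRNA. The 2 genes had the highest and the lowest fold change of the subunits tested, so that their ratio had to differ between RAB6A siRNA and NC. Among the remaining subunits, Copg2 (0.30, adjusted p = 0.0017) and Copb1 (0.23, adjusted p = 0.016) rose, and Copa (-0.49, adjusted p = 0.00026), Copb2 (-0.31, adjusted p = 0.0016) and Copg1 (-0.17, adjusted p = 0.026) fell. Copz1 had 17.7, 18.7 and 19.2 FPKM in NC and 18.5, 21.6 and 22.2 in RAB6A siRNA and did not pass the test. After the GC and length correction Copb2 was at -0.11 (limma adjusted p = 0.062) and Copg1 at -0.03 (adjusted p = 0.61), neither of them called, while Copz1 was called higher (0.35, adjusted p = 0.004), as it was with quantile normalization (0.28) and without RAB6A siRNA library 1 (0.24). Copz2 had 0.299, 0.443 and 0.525 FPKM in RAB6A siRNA, from 24 to 38 reads, above all NC libraries but under the filter. Both ARF GTPases chosen here fell, Arf4 (-0.45, adjusted p = 0.0026) and Arf1 (-0.22, adjusted p = 0.013), where 36.5% of all genes were lower. Other ARF genes did not share 1 direction. Arf3 fell (-0.77, limma adjusted p = 4.2e-05), Arf5 rose (0.76, limma adjusted p = 0.0002) and Arf6 (0.06) did not pass the test. Without NC library 1, Arf1 was at -0.20 and was no longer called.

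The COPII coat showed the same mixture. Of its 11 genes, 3 rose, 5 fell and 3 did not pass the test (72.7% called, against 74.1% of all genes), and none was a DEG (30.1% of all genes). With the GC and length correction, 4 were higher and 3 lower. Sec16a, the scaffold of ER exit sites, was the lowest, with 16.8, 17.2 and 16.9 FPKM in NC and 9.30, 9.68 and 11.6 in RAB6A siRNA (log2 fold change -0.74, SE 0.089, limma adjusted p = 0.00018). Sec24a, a cargo-binding subunit of the inner coat, was the highest, with 6.73, 6.87 and 7.38 FPKM in NC and 9.83, 9.32 and 11.1 in RAB6A siRNA (log2 fold change 0.52, SE 0.083, limma adjusted p = 0.00077). For both genes the groups did not overlap. Sec23a, the subunit that activates the GTPase of SAR1, rose (0.40, adjusted p = 0.0022) and its paralog Sec23b fell (-0.43, adjusted p = 0.00079). Sec24b fell (-0.54, adjusted p = 0.00022), Sec24c and Sec24d did not pass the test, with log2 fold changes of 0.12 and 0.10, and Sar1a fell (-0.32, adjusted p = 0.0021). Of the outer cage, Sec31a fell by little (-0.17, adjusted p = 0.048) and Sec13 did not pass the test (-0.08, adjusted p = 0.346). Sar1b rose (0.27, adjusted p = 0.012), and with the GC and length correction its value was -0.04 and no longer called. The same correction ended the calls of Sar1a (-0.10) and Sec31a (-0.06), and gave calls to Sec24c (0.26) and Sec24d (0.28).

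Among the cargo receptors, the p24 proteins moved apart. Tmed2 had 62.0, 58.0 and 53.9 FPKM in NC and 34.2, 40.3 and 35.5 in RAB6A siRNA (log2 fold change -0.66, SE 0.082, limma adjusted p = 0.00021), whereas Tmed9 had 19.4, 18.6 and 20.0 in NC and 28.7, 29.3 and 25.0 in RAB6A siRNA (log2 fold change 0.51, SE 0.074, limma adjusted p = 0.00044). Neither gene overlapped between the groups. Tmed10, which forms hetero-oligomers with both, rose as well (0.44, adjusted p = 0.0011), and a pseudogene of the same name is annotated, so that its reads may be divided. The KDEL receptors, which return ER residents through COPI vesicles, gave a small fall of Kdelr2 (-0.18, adjusted p = 0.041) and no call for Kdelr1 (0.11, adjusted p = 0.288). With quantile normalization Kdelr2 was at -0.02 without a call and Kdelr1 was called higher (0.27).

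The COG complex, which tethers vesicles that recycle Golgi enzymes, held the lowest fold change of all 51 genes. Cog1 had 7.37, 6.69 and 7.82 FPKM in NC, 6.37, 6.25 and 7.39 in SFRP2 siRNA and 3.43, 4.14 and 3.98 in RAB6A siRNA, where all 3 libraries lay below the other 6 (log2 fold change -0.91, SE 0.097, limma adjusted p = 9.3e-05). Cog8, in the other lobe of the complex, fell from 5.33, 6.44 and 5.44 to 3.48, 3.73 and 3.25 FPKM (log2 fold change -0.70, SE 0.097, limma adjusted p = 0.00038). Cog5 rose from 3.85, 3.75 and 3.34 FPKM in NC to 6.23, 5.72 and 6.42 in RAB6A siRNA (log2 fold change 0.73, SE 0.084, limma adjusted p = 0.00014). Cog4 (0.42, adjusted p = 0.0011) and Cog2 (0.31, adjusted p = 0.031) rose too, and Cog3, Cog6 and Cog7 did not pass the test, with log2 fold changes of 0.04, -0.24 and 0.11. The strand used for counting is not stated. Cog5 shares 24.0% of its exon bases with Hbp1 on the opposite strand, and Hbp1 rose in the same libraries, from 1.74, 1.91 and 1.98 FPKM in NC to 7.69, 6.72 and 6.60 in RAB6A siRNA, so that reads of the 2 genes cannot be told apart if counting ignored strand. Cog1 shares 22.4% of its exon bases with Fam104a, also on the opposite strand, which had a log2 fold change of 0.08 and did not pass the test. Cog8 shares 28.2% of its exon bases with Pdf on the same strand, which had at most 0.304 FPKM in any library. Cog4 shares exon bases with 2 genes on the opposite strand, the higher of them at a mean of 20.4 FPKM over all libraries. In the GARP complex, which receives endosomal vesicles at the trans-Golgi, Vps54 (-0.42, adjusted p = 0.0016) and Vps53 (-0.26, adjusted p = 0.0042, and -0.07 without a call after the GC and length correction) fell, and Vps51 had a log2 fold change of 0.04 without a call. In all, 19 of the 52 genes share exon bases with another gene, 14 of them with a gene on the other strand.

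**Figure D2:**
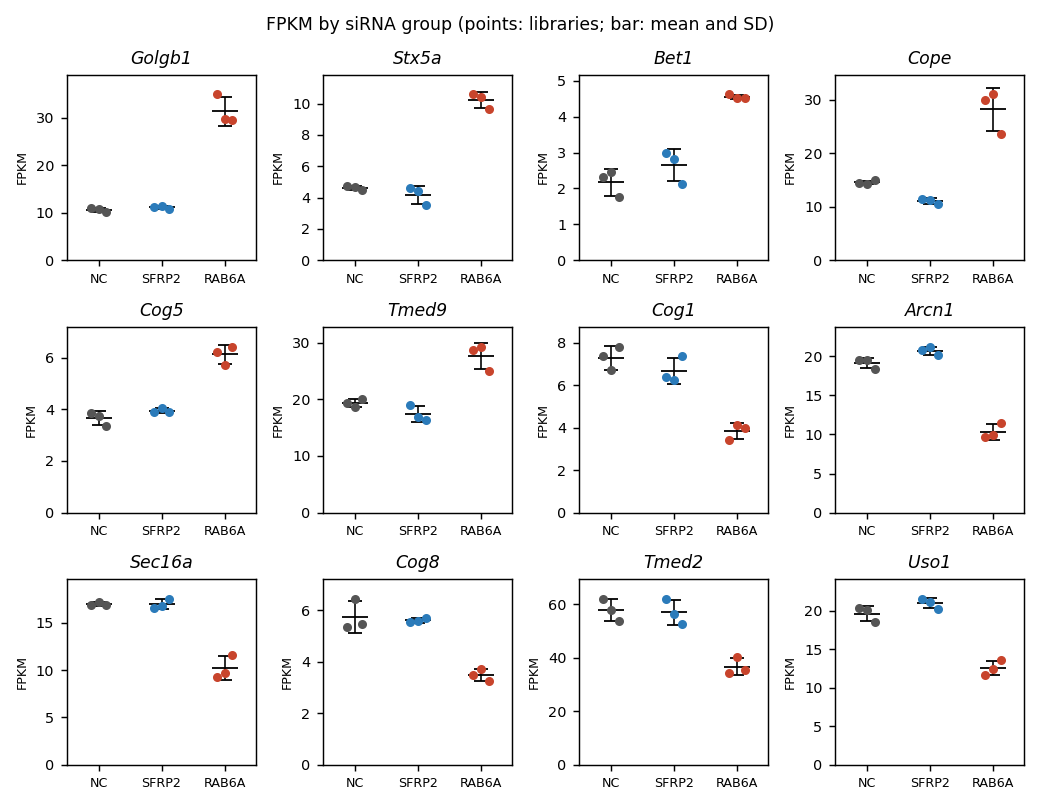
FPKM of 12 trafficking genes in each library (points) by siRNA group, with the mean and SD of 3 libraries as bars and each axis starting at 0. In the top row and for Cog5 and Tmed9 the RAB6A siRNA points lie above all others, and for the remaining 6 genes they lie below all others.

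Changes in opposite directions within a family were examined as the log2 ratio of 9 pairs of paralogs inside each library, which does not depend on the size of the library. In RAB6A siRNA against NC, 8 of the 9 pairs did not overlap, the exception being Sec24c/Sec24d. Of all genes taken singly, 77.4% did not overlap there, and no share was computed for ratios of other genes. An exact two-sided permutation test gave p = 0.1 for each of the 8 pairs, the smallest p that 3 libraries against 3 allow, and 0.129 after Benjamini-Hochberg adjustment over 18 tests, so that no pair could pass 0.05 by this test. The ratio Sec24a/Sec24b was -1.67, -1.60 and -1.60 in NC and -0.54, -0.63 and -0.53 in RAB6A siRNA on the log2 scale, a shift of 1.06. The ratio Sec23a/Sec23b was -1.49, -1.39 and -1.57 in NC and -0.67, -0.72 and -0.58 in RAB6A siRNA, a shift of 0.83. In both pairs the less abundant paralog gained on the other. Likewise, Copg1/Copg2 shifted by -0.47 and Gorasp1/Gorasp2 by 0.59, each towards its less abundant gene. Sar1a/Sar1b, whose genes were nearly equal in NC (0.12, 0.11 and -0.01), shifted by -0.58 towards Sar1b. The ratios were not computed with the GC and length correction, under which Sar1a, Sar1b and Copg1 each lost their call. Kdelr1/Kdelr2 shifted by 0.29 towards Kdelr1, the less abundant gene, and Arf1/Arf4 shifted the other way, by 0.23 towards Arf1, the more abundant gene. Copz1/Copz2 shifted by -1.14, a value that rests on 5 to 14 reads of Copz2 per NC library. In SFRP2 siRNA against NC, 6 of the 9 pairs did not overlap (exact p = 0.1 each, adjusted 0.129), with shifts between -0.32 for Sar1a/Sar1b and 0.25 for Copz1/Copz2. Of all genes taken singly, 24.7% did not overlap in that comparison.

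**Figure D3:**
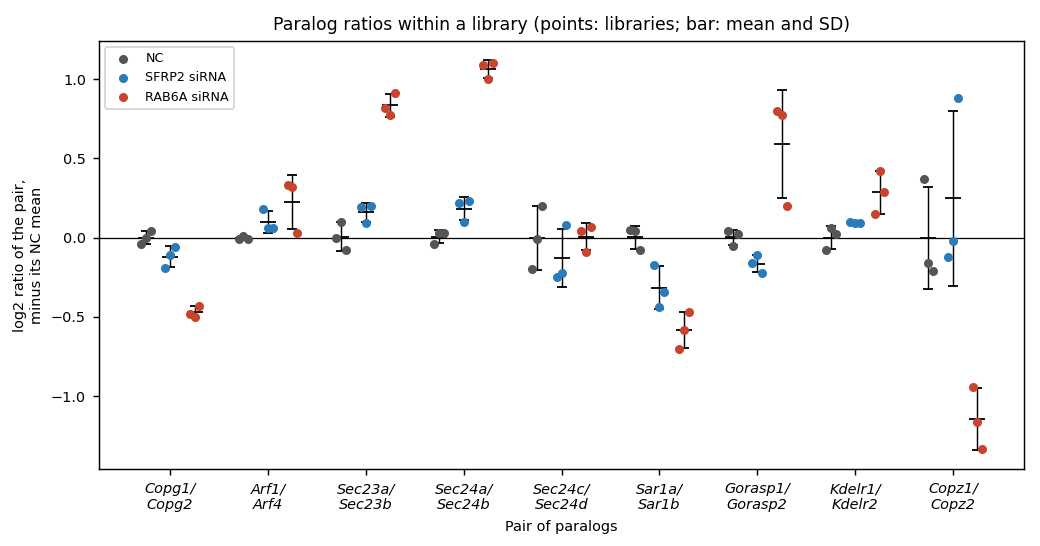
log2 ratio of each pair of paralogs inside a library, minus the mean of the 3 NC libraries (points: libraries, bars: mean and SD of 3). The RAB6A siRNA points of Sec23a/Sec23b and Sec24a/Sec24b lie near 0.83 and 1.06, well above the NC points, and those of Sec24c/Sec24d overlap with NC.

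SFRP2 siRNA was compared with NC to see whether the same genes moved when the gene under study was targeted. None of the 51 trafficking genes was called by limma, as none of the 12017 genes tested was (0%), and the smallest adjusted p among the 51 was 0.14. For SFRP2 siRNA in RAW264.7 cells, the paper reports DEGs in both directions from DESeq2, a test on counts that was not run here. At an unadjusted p under 0.05 there were 7 of 51 (13.7%), against 18.5% of all genes, of which 2 were higher (7.73% of all genes) and 5 lower (10.7%). With the GC and length correction there were 12 of 51, against 14.3% of all genes. The share of trafficking genes was then above that of all genes, not below it. The libraries did not overlap for 15 of the 51 genes (29.4%), 3 above and 12 below NC, against 24.7% of all genes (10.9% and 13.9%), and the median log2 fold change was -0.03, against -0.01. The lowest moderated t values were those of Cope, Sec13 and Gosr1. Cope had a log2 fold change of -0.39 (95% interval -0.52 to -0.27, limma adjusted p = 0.14), and was the single trafficking gene called when the recovered reads were tested with voom (adjusted p = 0.04 in that fit, in which 42 genes were called in all). Sec13 had 17.2, 16.0 and 18.0 FPKM against 19.2, 20.0 and 21.6 in NC (log2 fold change -0.25, SE 0.066, limma adjusted p = 0.178), and Gosr1 had 20.6, 21.1 and 21.6 against 23.7, 22.9 and 23.4 (log2 fold change -0.14, SE 0.044, limma adjusted p = 0.194). The highest were those of Sar1b, with 26.1, 30.1 and 28.9 FPKM against 23.2, 23.9 and 24.3 in NC (log2 fold change 0.25, SE 0.062, limma adjusted p = 0.178), Arcn1 (log2 fold change 0.11, SE 0.048, limma adjusted p = 0.27) and Uso1 (log2 fold change 0.10, SE 0.055, limma adjusted p = 0.375). For 49 of the 51 genes the 95% interval of the log2 fold change lay within 0.5 on either side of 0, the others being Cope and Bet1, whose interval reached 0.67. The NC libraries are shared by both comparisons, so that the values of each are given on their own. The plot of fold changes shows both.

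**Figure D4:**
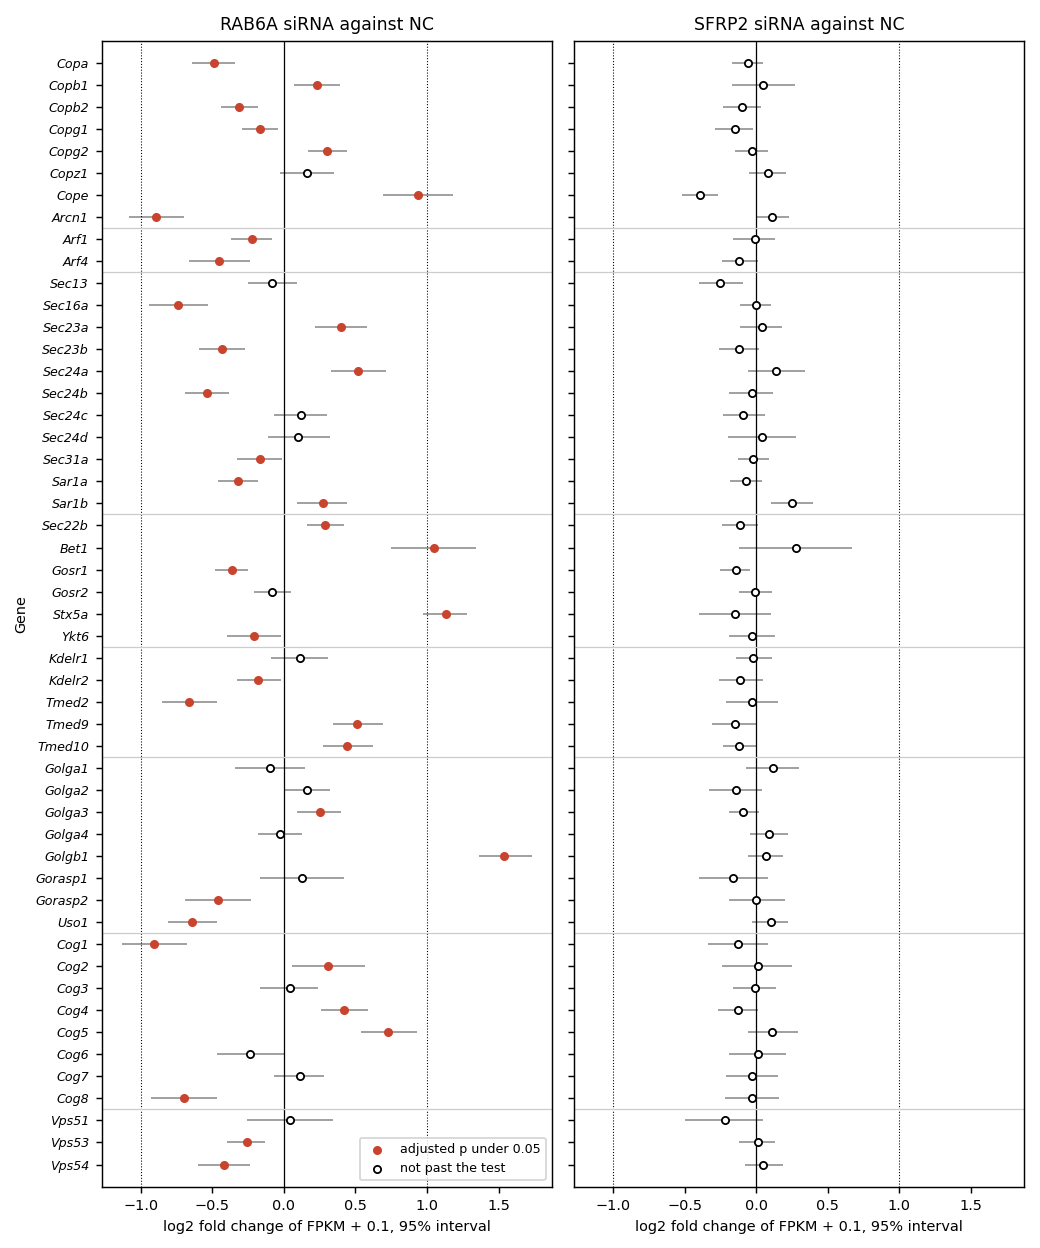
log2 fold change of FPKM + 0.1 against NC (points) with its 95% interval from limma (lines) for 51 trafficking genes, in RAB6A siRNA (left) and SFRP2 siRNA (right), with filled points at an adjusted p under 0.05 and dotted lines at an absolute log2 fold change of 1. On the left, 37 genes are filled and run from -0.91 for Cog1 to 1.54 for Golgb1, while on the right none is filled.

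The 2 targeted groups were also compared with each other. Of the 51 trafficking genes, 33 differed between RAB6A siRNA and SFRP2 siRNA (64.7%), against 73.4% of all 12764 genes tested, with 16 higher and 17 lower in RAB6A siRNA (37.6% and 35.8% of all genes). With the GC and length correction, 21 were higher and 12 lower, and 9263 of all 12576 genes were called, with no shares by direction computed. DEGs were 4 of the 51 (7.84%), against 31.1% of all genes, with 3 higher (17.8% of all genes) and 1 lower (13.3%). Golgb1 (log2 fold change 1.48, SE 0.078, limma adjusted p = 6.1e-06), Cope (1.33, SE 0.11, adjusted p = 3.6e-05) and Stx5a (1.28, SE 0.11, adjusted p = 4.4e-05) were higher in RAB6A siRNA, and Arcn1 was lower (-1.0, SE 0.079, adjusted p = 3.1e-05). Copg1 and Sar1b, which were called against NC in RAB6A siRNA, had differences of -0.01 and 0.02 between the targeted groups and did not pass the test there (adjusted p = 0.882 and 0.88).

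The wider ER-Golgi machinery was read from a list of 72 further genes (ARF regulators, p24 and cargo receptors, TRAPP subunits, SNAREs and others), of which 70 passed the filter. In RAB6A siRNA against NC, 48 of the 70 were called (68.6%, against 74.1% of all genes), 25 higher and 23 lower (37.6% and 36.5% of all genes), and 9 were DEGs (12.9%, against 30.1%). The highest fold changes were those of Trappc6a, a TRAPP subunit, with 3.51, 3.98 and 3.70 FPKM in NC and 17.1, 16.1 and 11.6 in RAB6A siRNA (log2 fold change 1.95, SE 0.14, limma adjusted p = 1.5e-05), of Bnip1, an ER SNARE that receives COPI vesicles (1.73), and of Trappc9 (1.51). The lowest were those of Trappc5 (-1.40), of Trip11, a golgin (-1.12), and of the p24 protein Tmed5 (-1.07). Against NC in SFRP2 siRNA, none of the 70 was called by limma or by voom on the recovered reads, and 18 of the 70 had an unadjusted p under 0.05 (25.7%, against 18.5% of all genes). Of 7 transcription factors known to act on genes of the secretory pathway, Creb3l2 (log2 fold change 1.23), Creb3l4 (1.13) and Creb3l1 (0.34) rose in RAB6A siRNA, and Xbp1 (-0.63) and Tfe3 (-0.75) fell. Creb3l4 was low throughout, at 0.433 FPKM in NC and 1.09 in RAB6A siRNA, and Creb3 (-0.03) and Atf6 (-0.02) did not pass the test.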

How the data were processed

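The authors deposited FPKM per Ensembl gene and library, and processing notes of the submitters name HISAT2, Subread and featureCounts, while versions, genome build, annotation and strandedness of counting are not given in the sources used here. Of 28137 identifiers, 27533 were named from GENCODE M21 (GRCm38). FPKM times exon length was a whole multiple of 1 read, within 0.03, in all 9 libraries for 98.4% of named genes, which gave depth and the reads of single genes. No column of the table was left unused. Groups came from the labels, with 3 libraries each. The study's methods name a test on counts, and because FPKM were deposited, limma 3.58.1 in R 4.3.3 was used on log2(FPKM + 0.1) with an intensity trend. Genes averaging 0.5 FPKM or more in the 6 libraries compared were fitted together, with Benjamini-Hochberg adjustment over all genes. A fold change on this scale understates that of low genes. DEGs were called at an adjusted p below 0.05 with a log2 fold change above 1 in size. For ratios of paralogs, the exact permutation test was two-sided. The fit was also run on simulated data with an equal spread for every gene and few changed genes. That setting differs from these data, so that it checks the code only. Other steps ran in Python 3.11.15 (scipy 1.17.1, pandas 2.3.3, numpy 2.4.6). The genes, lists and rules were chosen with earlier results of these data known. Named genes were all DEGs among the 52, the highest and lowest fold change in each role, the 3 highest and 3 lowest moderated t values in SFRP2 siRNA against NC, members of paralog pairs, the extremes of the wider list and its 7 regulators, and other called genes are given by value. Alternatives were other pseudocounts and filters, median-of-ratios and quantile scaling, no trend, the replicate number as a block, 1 fit of all 9 libraries, a spline correction for GC content and length (5 degrees of freedom), voom on the recovered reads, and each library left out.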

Additional observations from a re-analysis of the deposited data

How the results depend on the processing

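In RAB6A siRNA against NC, the number of trafficking genes called was 37 and ran from 32 to 39 over all alternatives, with 32 under the replicate block and 32 to 36 when 1 library was left out. Of the 37 calls, 26 kept their direction and their side of the threshold in every alternative, and 11 (Copb2, Copg1, Arf1, Sec31a, Sar1a, Sar1b, Gosr1, Ykt6, Kdelr2, Cog2 and Vps53) did not in at least 1. Of the 14 genes without a call, 7 (Copz1, Sec24c, Sec24d, Kdelr1, Golga2, Cog6 and Cog7) were called in at least 1 alternative. The number of DEGs was 3, and 1 (Golgb1) with a pseudocount of 1, which shrinks the fold changes of low genes by construction. It was 4 without a filter, where Copz2 was added, 2 with the GC and length correction, and 2 to 4 when 1 library was left out. Against NC in SFRP2 siRNA, no trafficking gene was called in any alternative but voom, where 1 was (Cope). The number of trafficking genes with an unadjusted p under 0.05 in that comparison was 7 of 51 (18.5% of all genes), and 12 with the replicate block (24.9% of all genes), 12 with the GC and length correction (14.3%) and 14 with both (17.3%). RAB6A siRNA against SFRP2 siRNA gave 28 to 36 calls and 3 to 5 DEGs, with 28 to 36 and 3 to 4 when 1 library was left out. The lower DEG, Arcn1, missed the limit with a pseudocount of 1, quantile normalization, voom, and the GC and length correction with or without the block. It also missed it without SFRP2 siRNA library 2, or without RAB6A siRNA library 1 or 2. The sign of small fold changes in RAB6A siRNA against NC turned in some alternatives, and Sar1b was the only called gene among them. With the GC and length correction, with or without the replicate block, Sar1b was -0.04, Sec13 0.10, Gosr2 0.08, Kdelr1 -0.03, Golga1 0.12, Golga4 0.07 and Vps51 -0.04. With quantile normalization Sec13 was 0.04, Gosr2 0.03, Golga4 0.04, Gorasp1 -0.04 and Vps51 -0.09, and with median-of-ratios scaling Cog3 and Vps51 were -0.01. Leaving out 1 library gave ranges of -0.07 to 0.01 for Golga4, -0.04 to 0.11 for Cog3 and -0.04 to 0.14 for Vps51. For the paralog ratios it gave -0.09 to 0.12 for Sec24c/Sec24d in RAB6A siRNA and -0.07 to 0.43 for Copz1/Copz2 in SFRP2 siRNA, and other ratios kept their sign. Paralog ratios were run only with other pseudocounts and with 1 library left out, not with the GC and length correction. The cause of these turns was not tested. Replicate numbers did not pair the libraries (mean correlation of deviations -0.010 for the same number and 0.0051 for different numbers). Apart from the calls named above, the replicate block changed none of the DEG calls. Values of Copz2, and of Sfrp2, are limited by their few reads.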

Other observations

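Among the SNAREs of the wider list, grouped after their values were seen and given without a test of the group, 8 of 9 were called higher in RAB6A siRNA than in NC, where 37.6% of all genes were. Stx16, a syntaxin of the trans-Golgi, had 21.6, 21.6 and 19.7 FPKM in NC and 48.2, 43.9 and 52.0 in RAB6A siRNA (log2 fold change 1.19). Vti1b, an endosomal SNARE, had 38.6, 38.7 and 36.4 FPKM in NC and 70.9, 74.7 and 61.6 in RAB6A siRNA (0.86), and Use1, an ER SNARE, had 12.3, 11.7 and 13.0 FPKM in NC and 26.7, 27.1 and 23.1 in RAB6A siRNA (1.05). Bet1l, a paralog of Bet1, was low and rose from 1.26, 0.917 and 0.904 to 2.57, 2.41 and 2.15 FPKM (1.15). Stx18 (0.58), Vamp4 (0.41) and Stx6 (0.20) rose by less, and Vti1a (0.09) did not pass the test. Of the 6 SNAREs described above, 3 rose and 2 fell.

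Ratios of trafficking genes that are partners in a complex or in tethering were chosen after their values were seen and are given without a test. Each sets the highest against the lowest fold change of its role, so that it had to differ between RAB6A siRNA and NC. The limits from exon bases that Golgb1 and Cog5 share with other genes, given above, hold here too. Golgb1 to Uso1 was 0.538, 0.540 and 0.552 in NC, 0.518, 0.545 and 0.536 in SFRP2 siRNA, and 2.98, 2.39 and 2.18 in RAB6A siRNA. Cog5 to Cog1 was 0.522, 0.561 and 0.428 in NC, 0.612, 0.648 and 0.525 in SFRP2 siRNA, and 1.82, 1.38 and 1.61 in RAB6A siRNA.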
